A study of Mus musculus with 2 samples.

Results

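The 36 genes described here are 32 nuclear receptor genes and 4 co-regulator genes. They were chosen by name from the receptor superfamily and its main co-regulators, without the glucocorticoid receptor and the Nr1d genes. All 36 matched exactly 1 row each among the 49585 gene identifiers of the count table. The messenger RNA came from CD11b+ cells, bead-isolated from subcutaneous tumours that grew from implanted mouse pancreatic cancer lines. Per the labels, every animal, control or test, was of the strain NRP2f/flCSF1R-iCRE on a BL6 background, carrying floxed Nrp2 alleles plus an inducible Cre under Csf1r control. Csf1r is expressed in monocytes and macrophages. Test animals received tamoxifen daily once tumours could be felt, and tumours were taken at 15 days. The labels name tamoxifen in the test animals alone, and effects of drug and deletion cannot be told apart. Tamoxifen is itself a ligand of the oestrogen receptors. RNA of 3 animals was pooled into 1 library per group, so no test was possible and every comparison below sets the knockout library against the control library. The labels state neither the age nor the sex of the animals, and do not name the cancer lines.

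Nuclear receptors are transcription factors that bind small lipophilic ligands, or no known ligand, and act on genes through a shared DNA-binding domain. Most of them recognise copies of a short DNA half-site, alone, as pairs of the same receptor or as pairs with a retinoid X receptor (RXR). Co-repressors such as Ncor1 hold target genes down, and the p160 co-activators Ncoa1, Ncoa2 and Ncoa3 join the receptor once it carries an activating ligand. In macrophages the liver X receptors and the peroxisome proliferator-activated receptors (PPARs) are known for control of cholesterol and fatty acid handling, and the NR4A receptors are known as immediate-early genes.

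The libraries held 64153676 counted reads (control) and 68554172 (knockout). Levels are counts per 1000000 (CPM) with library sizes scaled by TMM, and levels per kilobase of exon (per kb) serve where genes are set against each other. One captured fragment appeared to be worth about 47 reads in the control and 24 in the knockout library, the medians of genes seen in just one of the libraries. All intervals given are therefore 95% exact intervals on reads divided by these numbers, and they hold counting error alone, with no part for variation among animals. Where a library has 0 reads, 3 fragments (2.15 CPM, control, or 1.07 CPM, knockout) is used as a limit, called the floor below. The 95% interval of a level at 0 reads reaches higher, to 2.64 CPM (control) and 1.32 CPM (knockout). Nrp2, the targeted gene, was at 148 CPM in the control and 15.2 in the knockout library. Itgam, which encodes CD11b, was at 294 and 422 CPM, and all 12 macrophage markers were detected in both libraries, at summed levels of 27649 and 30854 CPM. Of these 12, 1 was higher and 1 lower by 2-fold or more, beside 10.8% and 14.7% of all genes with at least 50 reads. In these bulk samples, fewer cells of a type and less RNA per cell cannot be told apart.

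Stretches before an annotated start of 5 genes are printed because these are the members with at least 1000 reads that differed by at least 2-fold (Esr1, Ncoa1, Nr1h3, Pparg) and the most abundant member (Nr4a1). They come from RefSeq promoter windows (GRCm38.p6), run 5′ to 3′ on the gene's strand, and stop before the first annotated exon base of the start they precede. The Ncoa1 stretch lies before the outermost annotated end of its gene, and those of Esr1, Nr1h3, Pparg and Nr4a1 precede alternative starts inside the annotated gene. Capitals mark GC boxes (GGGCGG on either strand), nuclear receptor half-sites (AGGTCA on either strand) and cAMP response element-like letters (TGCGTCA on either strand).
Esr1, chr10:4709908-4710154, plus strand: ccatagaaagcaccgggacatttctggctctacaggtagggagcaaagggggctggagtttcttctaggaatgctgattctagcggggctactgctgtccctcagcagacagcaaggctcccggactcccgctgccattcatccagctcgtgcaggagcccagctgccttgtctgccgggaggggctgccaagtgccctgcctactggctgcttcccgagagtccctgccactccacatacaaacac
Ncoa1, chr12:4477183-4477432, minus strand: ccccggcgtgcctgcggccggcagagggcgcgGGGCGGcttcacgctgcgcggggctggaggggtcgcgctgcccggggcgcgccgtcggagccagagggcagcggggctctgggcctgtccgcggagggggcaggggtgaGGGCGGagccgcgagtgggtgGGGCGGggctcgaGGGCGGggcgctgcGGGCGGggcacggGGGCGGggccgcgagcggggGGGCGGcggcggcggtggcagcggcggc
Nr1h3, chr2:91195152-91195366, minus strand: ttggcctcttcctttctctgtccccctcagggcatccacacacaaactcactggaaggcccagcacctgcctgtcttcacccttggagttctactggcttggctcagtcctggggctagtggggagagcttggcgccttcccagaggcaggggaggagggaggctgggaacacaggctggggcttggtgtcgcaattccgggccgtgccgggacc
Pparg, chr6:115362099-115362291, plus strand: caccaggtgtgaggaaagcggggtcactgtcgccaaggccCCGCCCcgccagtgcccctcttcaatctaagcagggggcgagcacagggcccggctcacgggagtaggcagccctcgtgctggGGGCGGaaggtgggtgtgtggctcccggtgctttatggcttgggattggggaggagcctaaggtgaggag
Nr4a1, chr15:101266596-101266845, plus strand: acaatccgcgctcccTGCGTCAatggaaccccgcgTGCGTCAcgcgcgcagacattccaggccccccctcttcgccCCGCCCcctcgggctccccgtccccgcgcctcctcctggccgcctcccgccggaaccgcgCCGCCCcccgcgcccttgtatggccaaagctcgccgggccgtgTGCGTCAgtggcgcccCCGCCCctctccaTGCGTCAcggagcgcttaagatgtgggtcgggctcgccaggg

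The Ncoa1 stretch held 7 GC boxes in 250 bases and was 85.6% G or C. The Nr4a1 stretch held 3 GC boxes and 4 TGCGTCA matches, the Pparg stretch 2 GC boxes, and the Esr1 and Nr1h3 stretches none of these letters. The printed stretches held 0 AGGTCA half-sites, but the Pparg window from which the stretch was trimmed (115362099 to 115362348) held 1, and another Pparg window (115360894 to 115361143) held 1. Over the full 250-base windows before annotated starts, AGGTCA was in 9 of 49 windows of the 33 members with an entry, against 14% of all 32851 windows. GC boxes were in 24 of the 49 windows, against 32.7% of all windows. TGCGTCA was in the Nr4a1 window alone, against 1.75% of all windows. The paired elements ERE (2 inverted half-sites, 3 bases apart), DR1 and DR4 (direct repeats with 1 or 4 bases between) were in 0 of the 49. A match describes letters, and its absence says only that these letters are not in the window.

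Of the 36 members, 27 had at least 50 reads over both libraries, the minimum for a ratio, and 23 of these had at least 1000. A further 4 had 4 to 32 reads and 5 had none. Of the 27, 5 differed by 2-fold or more in either direction, beside 25.5% of all 14420 genes with that many reads. Higher in the knockout library by this measure were 4 (Esr1, Ncoa1, Thrb and Pparg), beside 10.8% of all genes, and lower was 1 (Nr1h3), beside 14.7%. The interval lay wholly past 2-fold higher for 2 members, Esr1 and Ncoa1, beside 0.853% of all genes, and wholly past 2-fold lower for 0, beside 1.03%. Intervals wholly above 1 were found for 6 members (Esr1, Thra, Rxra, Pparg, Ncoa1 and Ncoa2), beside 12.6% of all genes. Intervals wholly below 1 were found for 3 (Nr1h3, Nr2f6 and Nr4a3), beside 11.1%, so that 9 of 27 excluded 1, beside 23.6% of all genes. Of the 23 well-read members, 3 were 2-fold higher (4.50% of the 9054 genes with at least 1000 reads) and 1 was 2-fold lower (4.02%), 4 in either direction (8.52%). Among these 23, the interval was wholly past 2-fold higher for 2 (1.20%) and lower for 0 (1.17%). It was wholly above 1 for 6 (18.7%) and wholly below 1 for 3 (15.2%), and it excluded 1 for 9, near the 33.9% of well-read genes. The members' median log2 ratio was 0.20 and that of all genes -0.01. The description below turns on the few members with intervals that exclude 1.

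**Figure D1:**
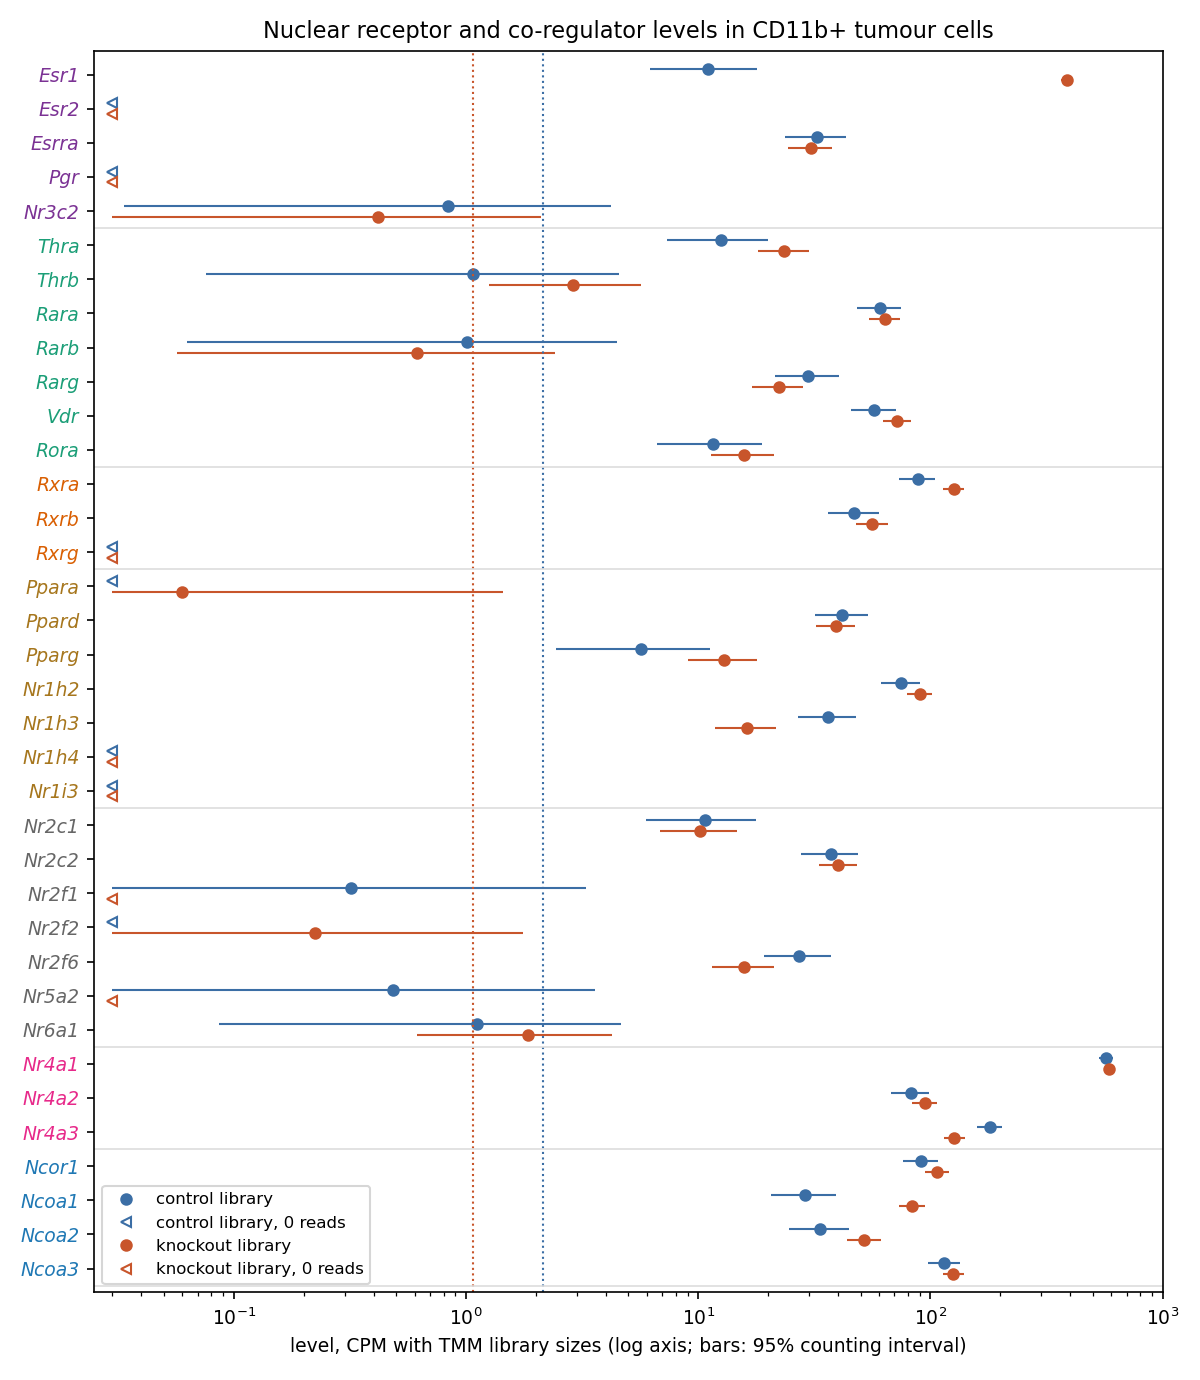
Level of each of the 36 members in the control (blue) and knockout (orange) libraries, in CPM on a log axis, with 95% counting intervals. Bars running to the left edge go on below it, open triangles mark 0 reads, and dotted lines mark the floor of each library (2.15 and 1.07 CPM). Gene names are coloured by role; Esr1 moves from 11.0 to 388 CPM, while most pairs of points overlap in their bars.

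Esr1, which encodes oestrogen receptor alpha, had the largest ratio of the 27 members with at least 50 reads. Its 721 reads in the control library gave 11.0 CPM (interval 6.19 to 18.0), and its 26006 in the knockout library gave 388 CPM (365 to 412), and these ranges do not overlap. The level was 35.3-fold higher in the knockout library (21.5 to 62.9), and on undivided reads the interval was 32.8 to 38.1. Per kilobase of exon Esr1 went from 0.804 to 28.4, from rank 23 of 36 in the control library to rank 2 in the knockout library, behind Nr4a1 alone. The vitamin D receptor gene Vdr was 12.6 times Esr1 per kilobase in the control and 0.447 times Esr1 in the knockout library. Esr1 (ENSMUSG00000019768) lies on chromosome 10 of GRCm38 (4611593 to 5005614, plus strand), and no exon of another annotated gene overlaps its exons. Tamoxifen-inducible recombinases are commonly fusions with a mutated ligand-binding domain of this receptor. Counts per gene do not tell reads of such a fusion from reads of Esr1 itself, so whether either library holds fusion reads was not tested. The labels give both groups the same genotype.

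The genes beside Esr1 were not higher by a like amount. Syne1, the nearest protein-coding gene downstream, had 4542 and 5844 reads, a ratio of 1.26 (0.992 to 1.61). Upstream, Ccdc170 had 0 reads in both libraries, and Armt1 had 1186 and 797 reads, 1.52-fold lower in the knockout library with an interval of the ratio from 0.381 to 1.15.

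The other steroid receptor genes were low or absent. Esr2 (oestrogen receptor beta) and Pgr (the progesterone receptor, itself a classical oestrogen-induced gene) had 0 reads in both libraries. Nr3c2, the mineralocorticoid receptor gene, had 55 and 28 reads, each under the floors of 141 and 72.0 reads, so no difference was detectable at this depth. Esrra, an orphan receptor of energy metabolism related to the oestrogen receptors, was at 32.4 and 30.6 CPM, a ratio of 0.942 (0.650 to 1.38). Esr1 was thus the only one of these 5 genes to exceed 2-fold.

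Known oestrogen receptor target genes lay in both directions. Of 14 listed targets, 10 had at least 50 reads, and 5 of these were above and 5 below equal levels (3 above and 7 below with total-count or upper-quartile scaling), with a median log2 ratio of -0.56. Among the 6 targets with at least 1000 reads, 4 were above and 2 below, with a median of 0.04. The only one higher by 2-fold was Tff1, with 0 and 56 reads, both under the floors, beside 10.8% of all genes. Lower by 2-fold were 5, beside 14.7% of all genes, 3 of them with fewer than 1000 reads (Cxcl12, Myb and Gper1). Myb (62 and 13 reads) and Gper1 (41 and 17) were under both floors too. Equal levels lay inside the ratio intervals of these 3, which reached 1.11 for Cxcl12, 11.6 for Myb and 59.2 for Gper1. Nrip1, a co-repressor gene that oestrogen induces, was at 35.6 and 52.8 CPM, a ratio of 1.48 (1.07 to 2.09). Greb1, Tff3 and Pgr, frequent markers of oestrogen receptor activity in breast epithelium, had 0 reads in both libraries. Igfbp4, which encodes an insulin-like growth factor binding protein, was at 200 and 58.0 CPM, 3.45-fold lower (2.83 to 4.21). Ccnd1, the cyclin D1 gene, was at 69.6 and 31.7 CPM, 2.19-fold lower. Ctsd, which encodes the lysosomal protease cathepsin D, was at 1659 and 2646 CPM, 1.59-fold higher (1.52 to 1.67).

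**Figure D2:**
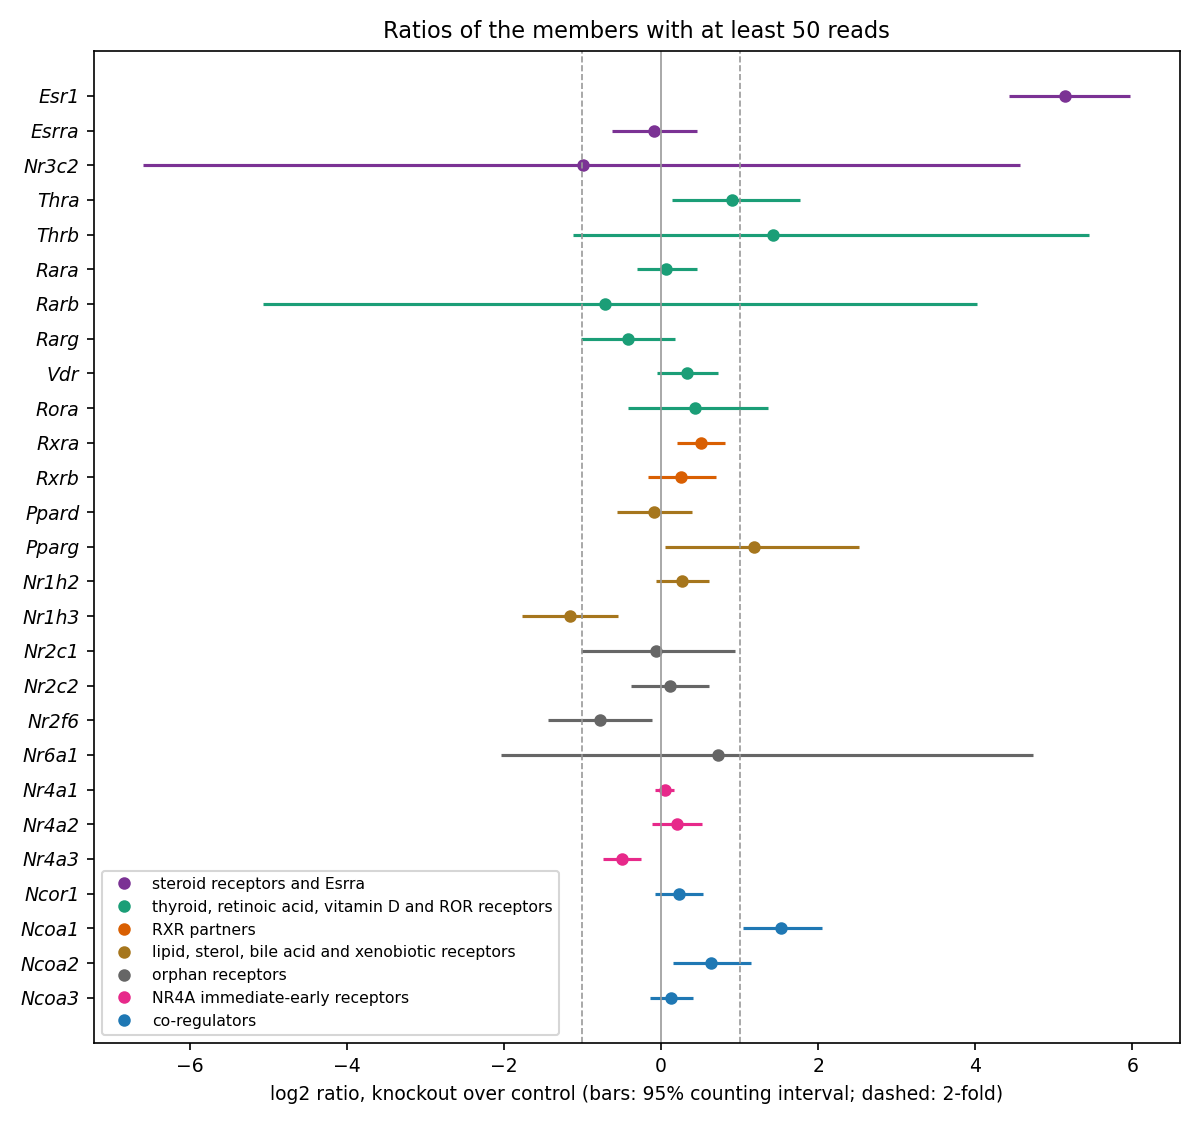
Log2 ratio, knockout over control, of the 27 members with at least 50 reads, coloured by role, with 95% counting intervals; the solid line marks equal levels and the dashed lines 2-fold. Esr1 at 5.14 and Ncoa1 at 1.53 have bars wholly beyond 2-fold, and the bars of Nr3c2, Thrb, Rarb and Nr6a1, each with fewer than 1000 reads, span both dashed lines.

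Ncoa1, the gene of the p160 co-activator SRC-1, was the other member past 2-fold by its whole interval. The control library held 1889 of its reads, at 28.8 CPM (20.6 to 39.2), and the knockout library 5575, at 83.2 CPM (72.9 to 94.6). The level was 2.89-fold higher (2.06 to 4.15), and Ncoa1 moved from rank 16 to rank 11 per kilobase. Ncoa1 (ENSMUSG00000020647) spans 4247362 to 4477182 of chromosome 12, minus strand. The lower bound of its ratio is close to 2, and with the reads per fragment doubled the interval no longer lay wholly past 2-fold.

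The other co-regulators differed less. Ncoa2, the second p160 gene of the list, was at 33.4 and 52.0 CPM, 1.56-fold higher (1.11 to 2.22). Ncoa3, the most abundant p160 gene per kilobase in both libraries (14.5 and 15.9), was at a ratio of 1.09 (0.904 to 1.33). Per kilobase, Ncoa3 was 4.33 times Ncoa1 in the control and 1.64 times in the knockout library. Ncor1, the co-repressor scaffold that binds receptors without ligand, was at 91.1 and 107 CPM, a ratio of 1.17 (0.949 to 1.45). All 4 co-regulator ratios were above 1, but those of Ncor1 (log2 ratio -0.06) and Ncoa3 (-0.04) turned once a trend with GC content and length was removed.

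Of 17 further co-regulators, 16 had at least 50 reads and none was 2-fold different in either direction (median log2 ratio 0.28), beside 10.8% higher and 14.7% lower among all genes. Ncoa6, a co-activator gene, was 1.49-fold higher (1.08 to 2.08). Ppargc1b, a co-activator of mitochondrial genes, was 1.92-fold higher with an interval of 0.983 to 4.06. The co-activator acetyltransferases Ep300 and Crebbp were at ratios of 1.08 (0.839 to 1.40) and 1.45 (1.04 to 2.05). Ppargc1a had 0 reads in the control and 14 in the knockout library, under both floors.

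The liver X receptor pair differed between the libraries. Nr1h3, which encodes LXR alpha, an oxysterol receptor of macrophages and liver, had 2373 reads in the control and 1086 in the knockout library. It was at 36.1 CPM (26.9 to 47.6) and 16.2 CPM (11.8 to 21.7), 2.23-fold lower in the knockout library (1.46 to 3.41). Its partner paralogue Nr1h2, LXR beta, which is expressed in most tissues, was at 74.8 and 90.1 CPM, a ratio of 1.20 (0.955 to 1.53). Nr1h3 (ENSMUSG00000002108) spans 91184061 to 91202834 of chromosome 2, minus strand. Per kilobase, Nr1h2 was 1.55 times Nr1h3 in the control and 4.17 times in the knockout library. Nr1h3 stood at rank 7 of the members in the control and 14 in the knockout library, while Nr1h2 held rank 3 in both.

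LXR target genes were mostly higher in the library with less Nr1h3. Of 13 listed targets, 11 had at least 50 reads, and 10 of these were above 1 (median log2 ratio 0.59), 9 of 11 under total-count or upper-quartile scaling and 9 of 11 with the GC and length trend removed. At least 2-fold higher were 2 of the 11, beside 10.8% of all genes, and 0 were 2-fold lower. The sterol exporter gene Abca1 was at 361 and 584 CPM, 1.62-fold higher (1.46 to 1.79), and Abcg1 at 84.2 and 134 CPM, 1.60-fold higher (1.29 to 1.98). Apoe, which encodes the carrier of exported cholesterol, was at 12399 and 18685 CPM, 1.51-fold higher (1.48 to 1.53). Mylip, the ubiquitin ligase that degrades the LDL receptor, was 1.62-fold higher (1.21 to 2.20), and the desaturase gene Scd1 2.26-fold higher (1.82 to 2.84). Apoc1 was 3.34-fold higher with a wide interval (1.30 to 11.0). Lpcat3, a phospholipid acyltransferase gene, was below 1 at 0.743 (0.576 to 0.962). Abcg5 and Abcg8, sterol transporters of gut and liver, had 0 reads in both libraries.

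**Figure D3:**
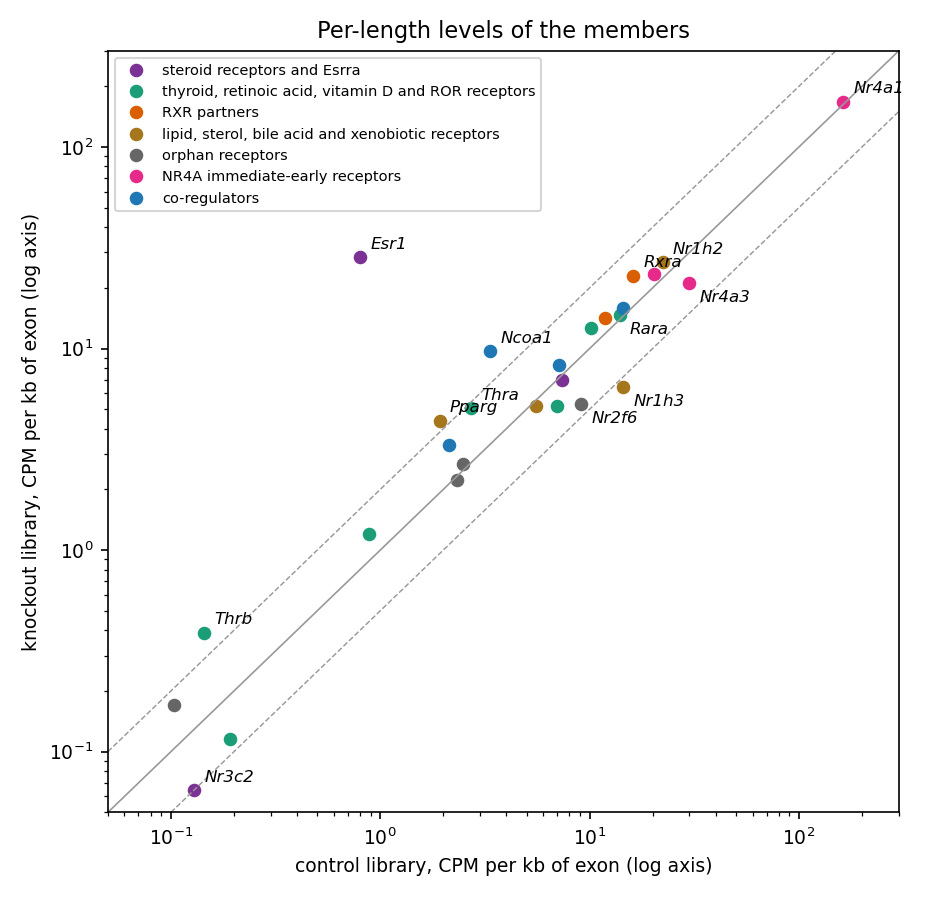
Level per kilobase of exon in the control library (horizontal, log axis) against the knockout library (vertical, log axis) for the 27 members with at least 50 reads, coloured by role; the solid line marks equal levels and the dashed lines 2-fold. Nr4a1 stands highest in both libraries at 163 and 168, Esr1 lies far above the line, and Nr1h3 lies below the lower dashed line.

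Among the PPAR genes, Pparg, the receptor of fat cells and of lipid-loaded macrophages, had 372 reads in the control and 867 in the knockout library. It was at 5.67 CPM (2.43 to 11.2) and 12.9 CPM (9.07 to 17.9), 2.28-fold higher (1.04 to 5.72), and the intervals of the levels overlap. Pparg (ENSMUSG00000000440) spans 115360951 to 115490399 of chromosome 6, plus strand. Ppard, the broadly expressed form, was at 41.7 and 39.1 CPM, a ratio of 0.938 (0.676 to 1.31). Ppara, the form of liver and heart, had 0 and 4 reads. Per kilobase, Ppard was 2.89 times Pparg in the control and 1.19 times in the knockout library. Adipocyte markers were mostly higher in the library in which Pparg was higher, and the 11 summed to 143 CPM in the control and 282 in the knockout library. Of the 10 with at least 50 reads, 7 were at least 2-fold higher and 1 lower, beside 10.8% and 14.7% of all genes. The interval lay wholly past 2-fold higher for 4, beside 0.853% of all genes. Cidea was 5.99-fold lower (ratio interval 0.0250 to 0.726), and Lipe was at a ratio of 0.660 (0.471 to 0.927). Adipoq, Plin1 and Retn had 0 reads in the control library and 454, 170 and 192 in the knockout library, and Lep had 0 in both. The ratio intervals of Plin1 and Retn began at 0.732 and 0.854, so equal levels lay inside them. The part of adipocyte markers in the Pparg difference was not tested.

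PPAR targets had a median log2 ratio of 0.15. Of the 16 on the list, 15 reached 50 reads. In the knockout library 3 of those were 2-fold or more higher, beside 10.8% of all genes, and 0 were lower, beside 14.7%. The 3 were Fabp4, Pdk4 and Adipoq, and the last 2 were at 0 in the control library. Fabp4, a fatty acid carrier of fat cells and macrophages, had 525 and 2462 reads, 4.59-fold higher (2.47 to 9.44). Fabp4 and Adipoq are on the adipocyte list too. Plin2, which coats lipid droplets, was at 648 and 654 CPM, a ratio of 1.01 (0.932 to 1.09). Cd36, the fatty acid translocase gene, was at a ratio of 1.11 (0.905 to 1.37), and Klf4, a transcription factor gene, was 1.78-fold higher (1.63 to 1.94). Acadm, a gene of mitochondrial fatty acid oxidation, was at a ratio of 1.30 (0.996 to 1.71).

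The bile acid receptor gene Nr1h4 and the xenobiotic receptor gene Nr1i3, both of liver, had 0 reads in both libraries. Tomm40l, on the opposite strand, shares 74.9% of the exonic bases of Nr1i3 and had 1773 and 1292 reads. The 0 reads of Nr1i3 are therefore uncertain unless counting used the strand.

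The RXR genes encode the shared partners of the lipid, retinoid, thyroid hormone and vitamin D receptors. Rxra had 5803 and 8412 reads, 88.4 CPM (73.5 to 105) and 126 CPM (113 to 139), 1.42-fold higher in the knockout library (1.15 to 1.76). Rxrb was at 47.0 and 56.3 CPM, a ratio of 1.20 (0.892 to 1.62), and Rxrg, the form of muscle and brain, had 0 reads in both libraries. Rxra stood at rank 5 per kilobase in both libraries, and its ratio to Rxrb was 1.37 in the control and 1.62 in the knockout library.

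Retinoic acid receptor genes had ratios within 2-fold. Rara, the form of most haematopoietic cells, was at 60.6 and 63.7 CPM, a ratio of 1.05 (0.806 to 1.38). Rarg was at 29.7 and 22.2 CPM, a ratio of 0.746 (0.495 to 1.13), and Rarb had 66 and 41 reads, under the floors. Top2b, on the opposite strand, shares 34.1% of the exonic bases of Rarb and had 5779 and 5977 reads, so the few Rarb reads are uncertain unless counting used the strand, which is not stated. Retinoic acid target genes were mostly lower in the knockout library. Of 11 listed, 8 had at least 50 reads, 2 above and 6 below equal levels (median log2 ratio -0.67). By 2-fold or more, 1 was higher and 3 were lower, beside 10.8% and 14.7% of all genes. Hic1, a transcriptional repressor gene, was 2.09-fold lower with an interval of the ratio from 0.281 to 0.814. The retinoic acid hydroxylase gene Cyp26a1 was 2.02-fold lower (ratio interval 0.222 to 1.09), and Cd38, an NAD-consuming ectoenzyme gene, was 1.90-fold higher (1.64 to 2.21). Tgm2, the tissue transglutaminase gene, was at 2047 and 1327 CPM, 1.54-fold lower (ratio interval 0.617 to 0.681).

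Vdr, the vitamin D receptor gene, was at 57.1 and 71.8 CPM, a ratio of 1.26 (0.965 to 1.65). The thyroid hormone receptor gene Thra had 819 and 1571 reads, 12.5 CPM (7.32 to 19.9) and 23.5 CPM (18.1 to 29.9), 1.88-fold higher (1.10 to 3.40). With the GC and length trend removed its log2 ratio was 1.01 and passed 2-fold. Nr1d1, on the opposite strand, shares 5.7% of the exonic bases of Thra and had 905 and 1421 reads. Its paralogue Thrb had 70 and 193 reads, a ratio of 2.69 (0.462 to 43.8), so equal levels lie inside the interval. Rora, an orphan receptor of lymphoid cells and brain, was at 11.6 and 15.7 CPM, a ratio of 1.35 (0.750 to 2.56), while T cell markers summed to 200 CPM in the control and 69.3 in the knockout library, whose part in the Rora value was not tested. Of 9 listed vitamin D and thyroid hormone targets, 5 reached 50 reads. Of these 5, 1 was 2-fold or more higher and 1 lower, beside 10.8% and 14.7% of all genes. Klf9, a Krüppel-like factor gene induced by thyroid hormone and by glucocorticoids, was 10.4-fold higher (5.88 to 20.5). The lower one, Hr, had 479 and 88 reads and was 5.53-fold lower (ratio interval 0.0385 to 0.641). Cd14, the endotoxin co-receptor gene, was 1.22-fold higher (1.16 to 1.28), and Bcl3 was at a ratio of 0.966 (0.722 to 1.30). The vitamin D hydroxylase gene Cyp24a1, the usual marker of receptor activity, had 0 reads in both libraries.

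The NR4A genes were the most abundant group, summing to 213 per kilobase in each library. Nr4a1, which encodes Nur77 and is needed by patrolling monocytes, had 37505 and 39495 reads, 571 CPM (532 to 612) and 590 CPM (561 to 619). Its ratio was 1.03 (0.948 to 1.12), and its direction turned under total-count (log2 ratio -0.02) and upper-quartile scaling (-0.01). Nr4a1 (ENSMUSG00000023034) spans 101254269 to 101274795 of chromosome 15, plus strand. Nr4a2, which encodes Nurr1, was at 82.2 and 94.5 CPM, a ratio of 1.15 (0.921 to 1.44). Nr4a3, which encodes Nor1, was at 180 and 127 CPM (158 to 203, and 114 to 141), 1.41-fold lower in the knockout library (1.20 to 1.66). The 2 intervals of the Nr4a3 level do not overlap, and Nr4a3 moved from rank 2 to rank 6 per kilobase. Of 6 listed NR4A-linked genes, 1 was higher and 2 were lower by 2-fold or more, beside 10.8% and 14.7% of all genes. The endothelial and leukocyte factor Klf2 was 2.75-fold higher (2.38 to 3.18), the chemokine receptor gene Ccr2 was 2.66-fold lower (ratio interval 0.335 to 0.421), and Tox had 218 and 0 reads. Irf4 was at a ratio of 0.725 (0.454 to 1.17).

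Orphan receptor genes ranged from 0 to 40.1 CPM, and the ratios of the 4 with at least 50 reads lay within 2-fold. Nr2f6, a repressor of lymphocyte cytokine genes, had 1780 and 1057 reads, 27.1 CPM (19.2 to 37.2) and 15.8 CPM (11.5 to 21.2), 1.72-fold lower in the knockout library (1.08 to 2.71). Ocel1, on the opposite strand, shares 54.4% of the exonic bases of Nr2f6 and had 778 and 1138 reads, so the Nr2f6 value is uncertain unless counting used the strand. The testicular receptor genes Nr2c1 and Nr2c2 were at ratios of 0.956 (0.495 to 1.92) and 1.08 (0.770 to 1.53), and Mrps25, with 1602 and 817 reads, shares 30.7% of the exonic bases of Nr2c2 on the opposite strand. The germ cell receptor gene Nr6a1 had 73 and 124 reads, a ratio of 1.66 (0.244 to 26.6). Nr5a2, a receptor gene of liver and exocrine pancreas, had 32 and 0 reads, Nr2f1 had 21 and 0, and Nr2f2, the COUP-TFII gene of veins and stroma, had 0 and 15. All 3 were under the floor of each library, so no fold is given. Endothelial markers summed to 91.1 and 23.0 CPM and fibroblast markers to 384 and 232 CPM.

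**Figure D4:**
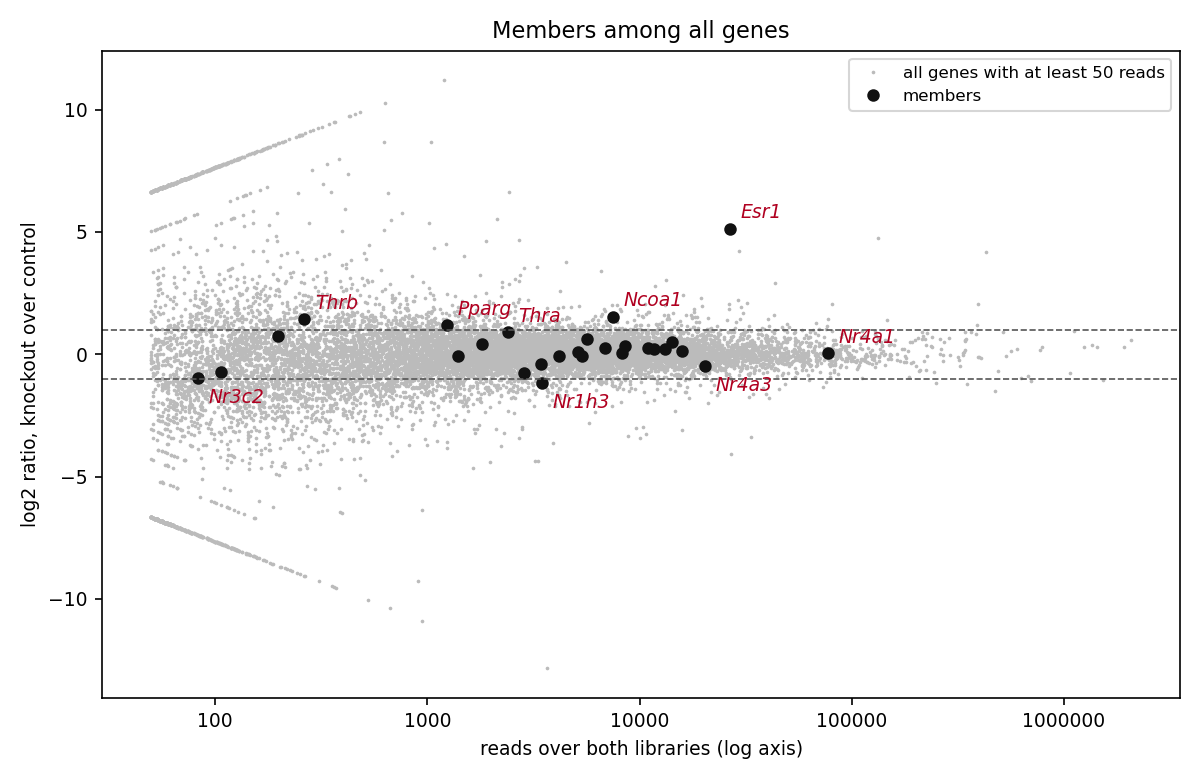
Log2 ratio, knockout over control, against reads over both libraries (log axis) for all 14420 genes with at least 50 reads (grey) and the 27 members among them (black); dashed lines mark 2-fold and slanted grey lines are genes at 0 in a single library. Esr1 lies at 5.14 at 26727 reads, apart from the grey cloud, whose spread is widest at few reads, and Ncoa1 lies at the cloud's upper edge.

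Per kilobase, Nr4a1 was above every other member in both libraries, with intervals of 152 to 174 and 160 to 176 that overlap no other. In the control library it was followed by Nr4a3 (30.0), Nr1h2 (22.3), Nr4a2 (20.2), Rxra (16.2), Ncoa3 (14.5), Nr1h3 (14.4) and Rara (13.9). Each of these overlapped its neighbour in the order within the counting interval. In the knockout library the order was Esr1 (28.4), Nr1h2 (26.9), Nr4a2 (23.3), Rxra (23.0), Nr4a3 (21.2), Ncoa3 (15.9) and Rara (14.6). Here Nr4a3 (19.1 to 23.6) and Ncoa3 (14.3 to 17.6) did not overlap, and the other neighbours did. Without Esr1 the 35 other members summed to 369 per kilobase in the control and 387 in the knockout library.

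**Figure D5:**
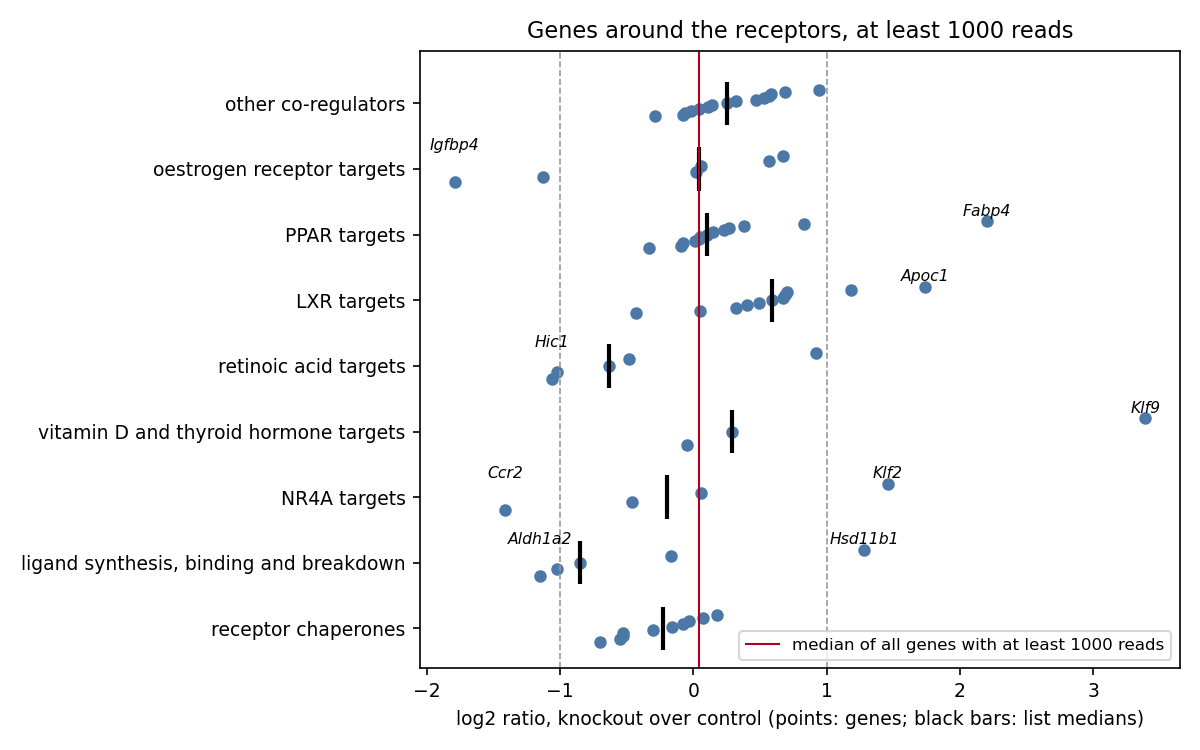
Log2 ratio, knockout over control, of the listed targets, co-regulators, ligand genes and chaperones with at least 1000 reads (blue points), by list, with list medians (black bars), 2-fold (dashed) and the median of all genes with at least 1000 reads (red line, 0.04). LXR targets lie mostly right of the red line (median 0.59) and retinoic acid targets mostly left of it (-0.63).

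Markers of several cell types differed between the libraries beside these results. Each count below stands beside 10.8% of all genes with at least 50 reads higher by 2-fold or more and 14.7% lower. Dendritic cell markers summed to 323 CPM in the control and 116 in the knockout library (7 of 10 lower by 2-fold or more), B cell markers to 210 and 22.3 (7 of 8), and NK cell markers to 122 and 44.2 (6 of 8). T cell markers were at least 2-fold lower for 11 of 13. Epithelial tumour markers summed to 196 and 129 CPM (4 of 8 at least 2-fold lower). Many of these markers had few reads: only 3 B cell, 3 NK cell and 4 T cell markers had at least 1000. The interval lay wholly past 2-fold lower for 4 of 8 B cell, 2 of 10 dendritic cell and 2 of 13 T cell markers. It did so for 0 of 8 NK cell and 0 of 8 epithelial tumour markers, beside 1.03% of all genes. Adipocyte markers, given above, were mostly higher in the knockout library. Monocyte markers went both ways, 3 of 10 at least 2-fold higher and 6 lower, with sums of 2909 and 4567 CPM, of which Fn1 gave 1788 and 4063. Neutrophil markers summed to 1455 and 1490 CPM, but single genes differed, 4 of 11 higher by 2-fold or more and 1 lower. Among them Lcn2 was 9.43-fold higher (4.05 to 28.0), Ngp had 2 and 1033 reads, and Mmp9 was 3.05-fold lower (ratio interval 0.286 to 0.376). Mast cell markers summed to 32.5 and 32.4 CPM (2 of 7 higher by 2-fold, 0 lower) and keratinocyte markers to 28.5 and 9.48 CPM (1 of 4 higher, 2 lower). The part of these cells in the differences of Nr1h3, Nr4a3, Ncoa1 and Esr1 was not tested.

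In the authors' deposited table, which has 1 library per group too, the log2 fold change of Esr1 was 5.16 with a standard error of 3.35 and p = 0.124. How an error was obtained from single libraries is not stated. Ncoa1 was at 1.55 with a standard error of 0.67 and p = 0.0216 in the authors' deposited table, the only member with an unadjusted p under 0.05, where 4.21% of 18864 genes had such a p. Every member with an adjusted p had one of 0.9999 in the authors' deposited table, and the lowest of any gene was 0.331.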

How the data were processed

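The members, the gene lists and the rules were chosen with earlier results of these data known. Messenger RNA libraries were prepared by the TruSeq stranded method, per the labels. Trimming, alignment and counting tools (cutadapt, HISAT2, featureCounts) and the build GRCm38 come from the submitters' processing notes. Their versions, options, strand setting and annotation release are not given there. The authors deposited raw counts per Ensembl gene from read 1, per the file headers. They also deposited a comparison table with log2 fold changes and their errors, their quotient as a score, p-values, and normalised values, a signal that equals the deposited counts divided by 0.995 (control) and 1.01 (knockout); the tool is not stated. Symbols were found for 49326 of 49585 identifiers, and coordinates and exonic lengths come from GENCODE M21 (GRCm38).

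Library sizes were scaled with TMM factors of 1.02 and 0.977 (edgeR 4.0.16, R 4.3.3). Log2 ratios used a prior of 0.5 counts and a minimum of 50 counts summed over the pair of libraries. With 1 library per group no test was run. Intervals are 95% exact conditional Clopper-Pearson intervals of the ratio and exact Poisson intervals of levels (scipy 1.17.1), on counts divided by 47 and 24 reads per fragment, the medians over 867 and 2114 genes with more than 4 reads in a single library. This takes every fragment as worth the same reads. The interval was also computed on generated counts with known ratios, made with the same 47 and 24 reads for every fragment. That check could therefore not test whether real fragments are worth equal reads. Alternatives were DESeq2 1.42.0 size factors, total-count and upper-quartile scaling, a prior of 5, other read minima, a GC and length trend (mgcv 1.9.3) and other fragment values. Members were named with both values where they had at least 1000 counts, and up to 3 genes of each list with at least 1000 counts and the largest ratio were named; further list genes were named after their values were seen. A few list genes are not reported here.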

Additional observations from a re-analysis of the deposited data

How the results depend on the processing

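The 135 log2 ratios of members recomputed under other scaling, another prior and a GC and length trend all stayed within the member's own counting interval, and 0 of the members past 2-fold changed direction under these. The sign changed in 6 cases, all of members with a log2 ratio of 0.23 or less in size: Nr4a1 under total counts (-0.02) and upper-quartile scaling (-0.01), and Esrra (0.03), Nr2c2 (-0.19), Ncor1 (-0.06) and Ncoa3 (-0.04) with the GC and length trend removed. The count of members at least 2-fold lower was 1, and became 2 under total counts, 2 under upper-quartile factors and 2 with the GC and length trend removed, each time by adding Nr3c2, and 3 with no filter beyond 1 count, by adding Nr2f1 and Nr5a2, which are at 0 in the knockout library. The count at least 2-fold higher was 3 to 6 against 4. The members' median log2 ratio was 0.10 with the GC and length trend removed, against 0.20, and 0.14 to 0.22 under the other scalings. The count of intervals wholly past 2-fold was 2, and became 5 on undivided reads (adding Thrb, Pparg and Nr1h3) and 1 with the reads per fragment doubled (Esr1). No paired analysis was possible because each group has 1 library.

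Depth limits 13 of the 36 members: 4 had at least 50 but under 1000 reads, 4 had fewer and 5 had none, and differences in these were not detectable unless very large. Differences between animals cannot be seen, since each library is a pool of 3.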

Other observations

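Genes that make, bind or break down receptor ligands were mostly lower in the knockout library. Of 20 listed, 15 reached 50 reads, and 9 of them were lower by 2-fold or more and 2 higher (median log2 ratio -1.15), beside 14.7% of all genes lower and 10.8% higher. Of the 15, 5 had at least 1000 reads, and no interval lay wholly past 2-fold lower. Aldh1a2, which makes retinoic acid, had 698 and 320 reads, 2.22-fold lower with an interval of the ratio from 0.198 to 1.01. Hsd11b1, which reactivates glucocorticoids, had 384 and 952 reads, 2.43-fold higher (1.13 to 5.95). Cyp26b1, a retinoic acid hydroxylase gene named after its values were seen, had 81 and 763 reads, 9.18-fold higher (2.17 to 102), while Cyp26a1 of the same family was at a ratio of 0.494 (0.222 to 1.09). Cyp19a1, the aromatase that makes oestrogens, and Cyp27b1, which activates vitamin D, had 0 reads in both libraries.

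Chaperones that hold steroid receptors ready for ligand lay within 2-fold, 8 of 10 below 1 (median log2 ratio -0.23; 7 of 10 with the GC and length trend removed). The co-chaperone genes Ppid, Fkbp4 and Stip1 were at ratios of 0.617 (0.411 to 0.930), 0.681 (0.497 to 0.939) and 0.693 (0.548 to 0.878), and Hsp90ab1 was at 1144 and 792 CPM, a ratio of 0.693 (0.649 to 0.739). Of 14 further superfamily genes, 11 had 0 reads in both libraries.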
